A study of Mus musculus with 12 samples.

Results

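Endothelin, adrenergic and glial G protein-coupled receptors were followed by 10 genes, chosen by symbol: the endothelin ligand gene Edn1, its receptor genes Ednrb and Ednra, the adrenergic receptor genes Adra1a, Adra1b, Adra2a and Adrb1, the prosaposin receptor gene Gpr37l1, the nucleotide receptor gene P2ry1 and the adenosine receptor gene Adora1. All 10 were found among the 55471 genes of the count table, and 9 of them passed the filter on low counts that left 19578 genes for testing. Edn1 did not pass it. The RNA came from primary hippocampal neurons of wild-type mouse embryos (CD1 strain, litters of mixed sex), which received either control gapmers or gapmers against *Neuid* in lipid nanoparticles on day 7 in vitro (DIV 7). RNA was taken at DIV 10, from 6 libraries in each group. Gapmers are short DNA strands with modified ends that pair with an RNA and have it cut inside the cell. Both groups shared the kind of culture, the carrier and the genotype. Markers of astrocytes were read in these neuron cultures too, as given further on. The sources used here do not state whether the 6 libraries of a group came from separate cultures, so the p-values measure the spread between these libraries.

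G protein-coupled receptors pass a signal from outside the cell to a heterotrimeric G protein. Receptors coupled to Gq activate phospholipase C and release calcium through IP3 receptors, those coupled to Gs stimulate adenylyl cyclase, and those coupled to Gi inhibit it. In brain, astrocytes answer noradrenaline, endothelin, ATP and adenosine through such receptors, and Ednrb and Gpr37l1 are known as astrocyte-enriched genes, whereas Adora1, Adra2a and Adrb1 are also found in neurons.

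*Neuid* (Gm10419), the targeted long non-coding RNA, was present at 26.0 to 31.0 CPM in the 6 control libraries (median 28.3) and at 6.32 to 9.55 CPM in the 6 *Neuid* KD libraries (median 8.08). The groups did not overlap, and *Neuid* fell by 1.81 on the log2 scale (edgeR quasi-likelihood test with Benjamini-Hochberg adjustment, adjusted p = 1.3e-10). CPM are read counts scaled to the size of the library, here after TMM normalization. Libraries held 18002585 to 30914714 reads in control and 11152556 to 30573480 in *Neuid* KD. Reads on 2014 olfactory, vomeronasal and taste receptor genes, a measure of background, took 26.7 to 667 CPM in control libraries and 27.1 to 617 CPM in those with *Neuid* KD. They were at 100 CPM or more in 4 control and 3 *Neuid* KD libraries.

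Of the 9 tested receptor genes, 3 rose on *Neuid* KD, namely Ednrb, Adrb1 and Adra2a, while 6.31% of all tested genes rose and 8.72% were called in either direction. None of the 9 was called lower, against 2.42% of all tested genes, and this count was 0 also at an unadjusted p under 0.05 and with DESeq2. With a log2 fold change above 0.5 required as well, Ednrb was the single receptor gene left, and 2.44% of all tested genes met that rule. The median log2 fold change was 0.27 over the 9 genes and -0.03 over all tested genes. All 9 estimates were above 0, as were 44.4% of all tested genes. Between 64.0% and 76.1% of the called genes were higher under most scalings and filters, against 72.3% in the fit used here, but the share was 45.5% with upper-quartile scaling, 57.5% with DESeq2 and an RUVs factor, 58.1% in the libraries with little background and 60.9% with offsets for GC content and length.

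**Figure D1:**
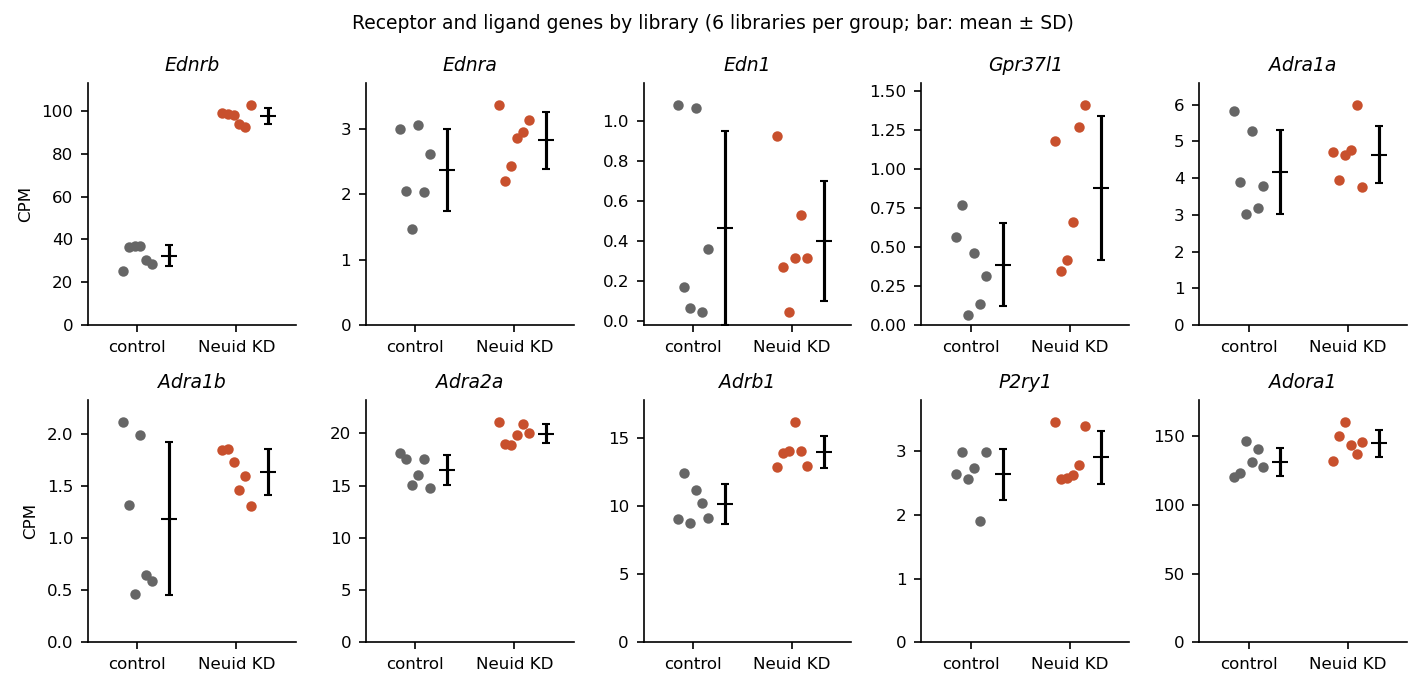
CPM of the 10 genes (y axis, linear, a separate scale for each gene) in each control and *Neuid* KD library, 6 per group; points are libraries and the bar is mean ± SD. The groups are apart for Ednrb, Adra2a and Adrb1 and overlap for the other 7 genes; the SD bar of control Edn1 reaches below 0, where no library lies.

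Ednrb encodes the type B endothelin receptor, which binds the endothelin peptides with like affinity and is abundant on astrocytes. It lies on chromosome 14 (minus strand), from 103814625 to 103844402 (GRCm38, identifier ENSMUSG00000022122). Its level was 25.1 to 37.0 CPM in control libraries (median 33.4) and 92.4 to 102.7 CPM in *Neuid* KD libraries (median 98.4). Every *Neuid* KD library was thus above every control library, and the gap between the groups was wider than the whole range of either. The mean went from 32.4 ± 5.03 to 97.5 ± 3.74 CPM (SD, n = 6 each), a 3.00-fold rise (log2 fold change 1.58, SE 0.083, edgeR quasi-likelihood adjusted p = 4.5e-10). An exact two-sided permutation test over the 924 arrangements of the libraries gave p = 0.0022, the smallest it can give. The counts behind these values were 487 to 1109 reads in control and 1176 to 2687 in *Neuid* KD libraries. The coefficient of variation between libraries was 15.5% in control and 3.83% in *Neuid* KD.

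Ednra encodes the type A endothelin receptor, best known from vascular smooth muscle and other mesenchymal cells, where endothelin-1 causes contraction. It lies on chromosome 8 (minus strand), from 77663031 to 77724464 (ENSMUSG00000031616). Ednra was at 1.47 to 3.06 CPM in control (median 2.34) and at 2.21 to 3.37 CPM in *Neuid* KD (median 2.91). The groups overlapped over most of their range, and the difference did not pass (log2 fold change 0.25, SE 0.20, edgeR quasi-likelihood adjusted p = 0.62). Its antisense partner 4933431K23Rik shares part of the locus, and the strand setting of the counting is not given in the sources used here, so reads of both strands cannot be told apart.

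Within each library the log2 ratio of Ednrb to Ednra reads does not depend on the scaling of the library. This ratio was 3.06 to 4.64 in control (mean 3.79 ± 0.56 SD, n = 6) and 4.86 to 5.47 in *Neuid* KD (5.11 ± 0.23). The ranges did not overlap, and the difference of 1.32, a 2.50-fold shift towards the type B receptor, had an exact permutation p of 0.0022 (0.0065 adjusted over the 3 ratios computed).

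The promoter windows of both receptor genes are shown because the genes of this receptor pair differed in their response. The windows run from 200 to 21 bases before the RefSeq start (180 bases, GRCm38.p6, minus strand, written 5′ to 3′), and capitals mark motif matches, searched on both strands. The letters of the GC box were GGGCGG. Those of the CCAAT box are its name, and the TATA box was searched by its letters TATAAA. The Ednrb window is chr14:103843722-103843901, which lies in an intron of the longest annotated Ednrb transcript, and the Ednra window is chr8:77724473-77724652.
Ednrb: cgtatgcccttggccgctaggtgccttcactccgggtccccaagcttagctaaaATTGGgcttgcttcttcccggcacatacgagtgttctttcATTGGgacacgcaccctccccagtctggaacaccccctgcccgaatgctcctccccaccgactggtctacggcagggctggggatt
Ednra: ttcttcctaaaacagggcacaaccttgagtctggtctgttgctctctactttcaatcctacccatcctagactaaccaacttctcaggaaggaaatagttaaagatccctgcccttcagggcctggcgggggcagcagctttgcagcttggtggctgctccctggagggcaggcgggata
The Ednrb window held 2 CCAAT boxes, both read as ATTGG on the strand shown, with 9 CpG and 60.0% GC. The Ednra window held none of these motifs, with 2 CpG and 53.3% GC. Over the 32851 RefSeq windows of the same length, 27.5% held a CCAAT box, 27.9% a GC box and 9.34% a TATA box. These are matches of letters only.

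Edn1 encodes endothelin-1, the peptide made by endothelial and epithelial cells and by injured astrocytes. It lies on chromosome 13 (plus strand), from 42301476 to 42307990 (ENSMUSG00000021367). It was counted by 1 to 23 reads in control libraries and by 1 to 13 in *Neuid* KD libraries, which is 0.046 to 1.08 CPM (median 0.27) and 0.047 to 0.93 CPM (median 0.31). The groups covered the same range, the log2 ratio of the mean CPM was -0.22, and an exact permutation test gave p = 0.81. The sign of this ratio was not stable: it was 0.23 without control replicate 1, 0.21 without control replicate 4, 0.02 without *Neuid* KD replicate 3, and 1.90 in the 5 libraries with little background. The highest control values, 1.08 and 1.07 CPM, stood in the control libraries with the most background reads. Per length, Edn1 was between 1.15 and 17.6 times the mean level of the chemosensory genes in the same library, so its level cannot be told from background in some libraries. The part of background in the Edn1 values was not tested further, and no difference was detectable at this depth. Gm47118 overlaps Edn1 on the opposite strand.

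The rest of the endothelin system gave no further call. Of 4 tested genes of 7 listed, Ednrb rose and 3 did not pass, with a median log2 fold change of 0.18. Ece1, the converting enzyme that cuts big endothelin to the active peptide, was measured well, at 32.7 ± 2.09 CPM in control libraries and 34.8 ± 3.31 CPM in those with *Neuid* KD (SD, n = 6 each, log2 fold change 0.10, edgeR quasi-likelihood adjusted p = 0.50). The ligand genes Edn2 and Edn3 were too low to be tested, at most at 0.88 and 1.14 CPM in any library.

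**Figure D2:**
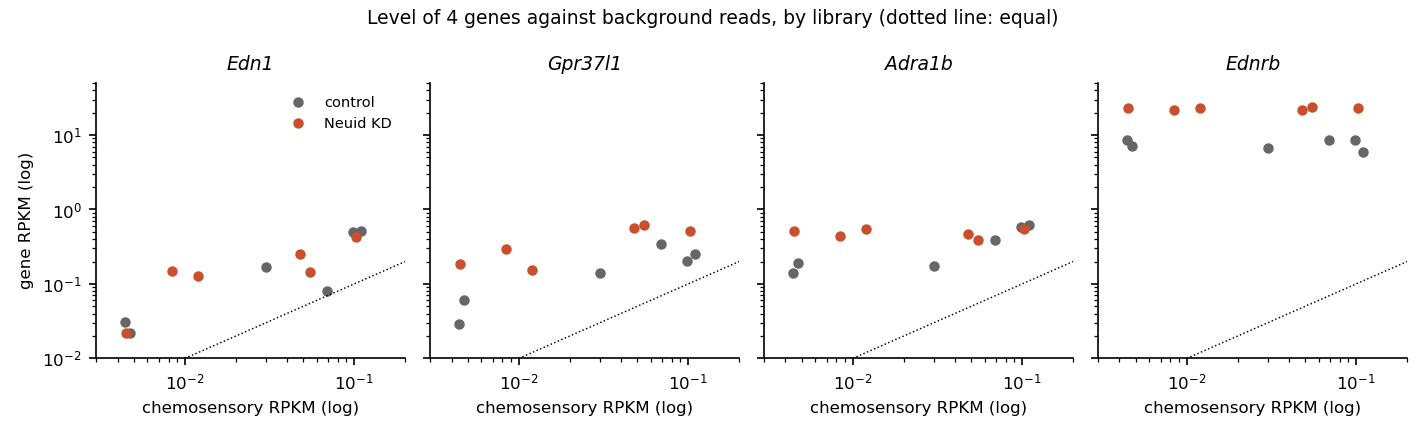
Level of Edn1, Gpr37l1, Adra1b and Ednrb (RPKM, log y axis) against the mean level of chemosensory receptor genes in the same library (RPKM, log x axis), 6 control and 6 *Neuid* KD libraries; the dotted line marks equal levels. Edn1 comes down to 1.15 times the chemosensory level in a control library, and the *Neuid* KD points of Ednrb stay above the control points at every background level.

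Adrb1 encodes the beta-1 adrenergic receptor, a Gs-coupled receptor of noradrenaline. It lies on chromosome 19 (plus strand), from 56722199 to 56733113 (ENSMUSG00000035283). It was at 8.74 to 12.4 CPM in control (median 9.68) and at 12.9 to 16.1 CPM in *Neuid* KD (median 13.9). The lowest *Neuid* KD library was just above the highest control library, so the groups did not overlap, which was the case for 5.70% of all tested genes. Adrb1 rose 1.39-fold (log2 fold change 0.47, SE 0.089, edgeR quasi-likelihood adjusted p = 0.0017). Among the 7 libraries with at least 100 CPM of background the log2 fold change was 0.36 and did not pass (adjusted p = 0.13), and among the other 5 it was 0.61 (adjusted p = 0.0012).

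The Adrb1 promoter window is shown as that of the adrenergic receptor gene with the largest called change. It covers chr19:56721917-56722096 on the plus strand, with capitals as above.
Adrb1: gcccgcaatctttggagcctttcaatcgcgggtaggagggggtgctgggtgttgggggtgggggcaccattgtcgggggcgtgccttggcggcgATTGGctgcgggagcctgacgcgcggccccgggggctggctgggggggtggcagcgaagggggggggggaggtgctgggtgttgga
This window held 1 CCAAT box and 13 CpG at 72.2% GC, where the middle of all windows was 52.8% GC with 4 CpG. Among the windows not shown, that of Adra2a, which rose, held 0 CCAAT boxes. The Gpr37l1 window held 2, as did 1 Adra1b window, while the other Adra1b window held 0, and neither gene was called. The windows of Edn1, P2ry1 and Adora1 held 0. Whether CCAAT boxes go with the response was not tested.

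Adra2a encodes the alpha-2A adrenergic receptor, a Gi-coupled receptor that acts as an autoreceptor on noradrenergic terminals and also sits on other neurons and on glia. It lies on chromosome 19 (plus strand), from 54044151 to 54048982 (ENSMUSG00000033717). It was at 14.8 to 18.1 CPM in control (median 16.7) and at 18.9 to 21.1 CPM in *Neuid* KD (median 19.9). The groups did not overlap, and the distance between them was less than the range of either. Adra2a rose 1.21-fold (log2 fold change 0.27, SE 0.062, edgeR quasi-likelihood adjusted p = 0.0077). The call did not pass with upper-quartile scaling (0.21, adjusted p = 0.076), without *Neuid* KD replicate 5 (0.23, adjusted p = 0.063), or among the libraries with at least 100 CPM of background (0.33, adjusted p = 0.064) or under it (0.21, adjusted p = 0.23).

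The Gq-coupled alpha-1 receptors did not pass. Adra1a was at 3.04 to 5.83 CPM in control (median 3.84) and at 3.77 to 5.99 CPM in *Neuid* KD (median 4.67), which overlap over nearly the whole range (log2 fold change 0.16, SE 0.17, edgeR quasi-likelihood adjusted p = 0.75). Adra1b, known from astrocytes as well as neurons, was at 0.47 to 2.12 CPM in control (median 0.99) and at 1.31 to 1.86 CPM in *Neuid* KD (median 1.67). Control libraries lay on both sides of the *Neuid* KD libraries (log2 fold change 0.46, SE 0.38, edgeR quasi-likelihood adjusted p = 0.63).

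Control Adra1b moved with the background reads. In the 2 control libraries under 100 CPM of background it was at 0.47 and 0.65 CPM, and in the other 4 it reached from 0.59 to 2.12 CPM. In *Neuid* KD the corresponding ranges were 1.47 to 1.86 CPM in 3 libraries and 1.31 to 1.85 CPM in 3 libraries. Among the 5 libraries with little background the log2 fold change was 1.58 (edgeR quasi-likelihood adjusted p = 0.014), and among the other 7 it was 0.09 (adjusted p = 0.99). Whether these values differ from each other, and the part of background in them, was not tested. The log2 ratio of Adra1a to Adra1b reads was 1.99 ± 0.60 in control and 1.48 ± 0.28 in *Neuid* KD (SD, n = 6 each, exact permutation p = 0.097, also 0.097 adjusted over the 3 ratios).

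Of the 9 adrenergic receptor genes, 7 were tested, 2 rose and 5 did not pass, with a median log2 fold change of 0.27. The share of all tested genes that rose was 6.31%. Adra1d, the best expressed per length of those that did not pass, averaged 5.05 ± 0.49 CPM in control libraries against 6.16 ± 1.06 CPM in *Neuid* KD libraries (SD, n = 6 each, log2 fold change 0.30, edgeR quasi-likelihood adjusted p = 0.17). Among the genes for synthesis, uptake and breakdown of noradrenaline, 0 of 5 tested passed with edgeR or DESeq2, and 1 was higher at an unadjusted p under 0.05. Th, the rate-limiting enzyme of synthesis, was at most at 1.19 CPM in any library and was not tested.

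**Figure D3:**
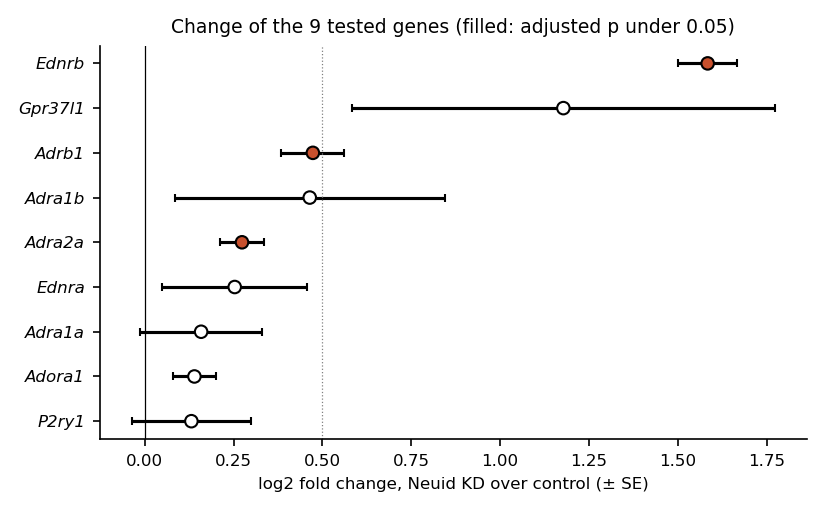
Log2 fold change of *Neuid* KD over control for the 9 tested genes (x axis, ± SE from the edgeR fit; y axis, genes in order); filled points have an adjusted p under 0.05 and the dotted line marks 0.5. Ednrb at 1.58 is the single filled point beyond the line, and the wide bars of Gpr37l1 and Adra1b belong to genes at or under about 2 CPM.

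Gpr37l1, a receptor described for prosaposin and enriched in astrocytes, lies on chromosome 1 (minus strand), from 135160234 to 135167681 (ENSMUSG00000026424). It was counted by only 2 to 18 reads in control and 9 to 31 reads in *Neuid* KD libraries. Its level was 0.067 to 0.77 CPM in control (median 0.39) and 0.35 to 1.41 CPM in *Neuid* KD (median 0.92). Of the 6 *Neuid* KD libraries, 3 were above every control library and the other 3 lay within the control range. The log2 fold change was 1.18 with an SE of 0.60 and did not pass (edgeR quasi-likelihood adjusted p = 0.31, exact permutation p = 0.054).

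Gpr37l1 also followed the background reads, and within each background class its groups were apart. Among libraries with at least 100 CPM of background it was at 0.32 to 0.77 CPM in 4 control and 1.18 to 1.41 CPM in 3 *Neuid* KD libraries. Among the others it was at 0.067 and 0.14 CPM in 2 control and 0.35 to 0.66 CPM in 3 *Neuid* KD libraries. Fitted in the libraries with at least 100 CPM of background, the log2 fold change was 1.29 (edgeR quasi-likelihood adjusted p = 0.29). Under 100 CPM it was 2.21 (adjusted p = 0.10), so the rise did not pass in either class. With the background as a covariate in the edgeR fit the log2 fold change was 1.47 (adjusted p = 0.0045), and with an RUVs factor, which estimates unwanted variation from replicates, it was 1.53 (adjusted p = 0.0034). Neither is the fit chosen as the main result.

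Gpr37, the paralog of Gpr37l1, averaged 26.5 ± 2.01 CPM in control libraries against 25.5 ± 2.93 CPM in *Neuid* KD libraries (SD, n = 6 each, log2 fold change -0.05, edgeR quasi-likelihood adjusted p = 0.82). The log2 ratio of Gpr37l1 to Gpr37 reads was -6.38 ± 1.31 in control and -4.99 ± 0.99 in *Neuid* KD (SD, n = 6 each), a difference of 1.38 with overlapping ranges (exact permutation p = 0.069, 0.097 adjusted over the 3 ratios). Psap, which encodes the precursor prosaposin, was far more abundant at 512 ± 41.4 and 562 ± 39.8 CPM (SD, n = 6 each, log2 fold change 0.13, edgeR quasi-likelihood adjusted p = 0.24). Of these 3 tested genes, 0 passed with edgeR or DESeq2, and 1 was higher at an unadjusted p under 0.05.

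P2ry1, the Gq-coupled receptor of ADP, lies on chromosome 3 (plus strand), from 61002795 to 61008982 (ENSMUSG00000027765), and overlaps Gm37035 on the opposite strand. It was at 1.90 to 2.99 CPM in control (median 2.69) and at 2.56 to 3.45 CPM in *Neuid* KD (median 2.71). The medians lay next to each other and the groups overlapped (log2 fold change 0.13, SE 0.17, edgeR quasi-likelihood adjusted p = 0.79). Of the 8 P2Y receptor genes, 3 were tested and 0 passed, with 0 at an unadjusted p under 0.05 and 0 with DESeq2.

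Adora1 encodes the A1 adenosine receptor, a Gi-coupled receptor that damps transmitter release at synapses. It lies on chromosome 1 (minus strand), from 134199223 to 134235431 (ENSMUSG00000042429), and overlaps Mybph on the opposite strand. It was at 120.3 to 147 CPM in control (median 129) and at 132 to 160.3 CPM in *Neuid* KD (median 145). The upper control libraries reached into the *Neuid* KD range, and the difference did not pass (log2 fold change 0.14, SE 0.060, edgeR quasi-likelihood adjusted p = 0.20). It passed with an RUVs factor in edgeR (0.12, adjusted p = 0.0498) and in DESeq2 (0.10, adjusted p = 0.035) and with the background as a covariate (0.12, adjusted p = 0.041).

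A further adenosine receptor gene rose. Adora2b, the Gs-coupled low-affinity receptor, was at 0.37 to 1.29 CPM in control (median 1.05) and at 3.74 to 4.55 CPM in *Neuid* KD (median 3.92). The groups did not overlap, and Adora2b rose 4.25-fold (log2 fold change 2.09, SE 0.24, edgeR quasi-likelihood adjusted p = 1.0e-05). Adk, the kinase that clears adenosine and is known from astrocytes, rose 1.32-fold, from 12.2 ± 1.35 to 16.2 ± 1.87 CPM (SD, n = 6 each, adjusted p = 0.0058). The other 8 of 10 tested genes for adenosine receptors and adenosine handling did not pass, and the median over the 10 was 0.08 on the log2 scale. By comparison, 6.31% of all tested genes rose.

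**Figure D4:**
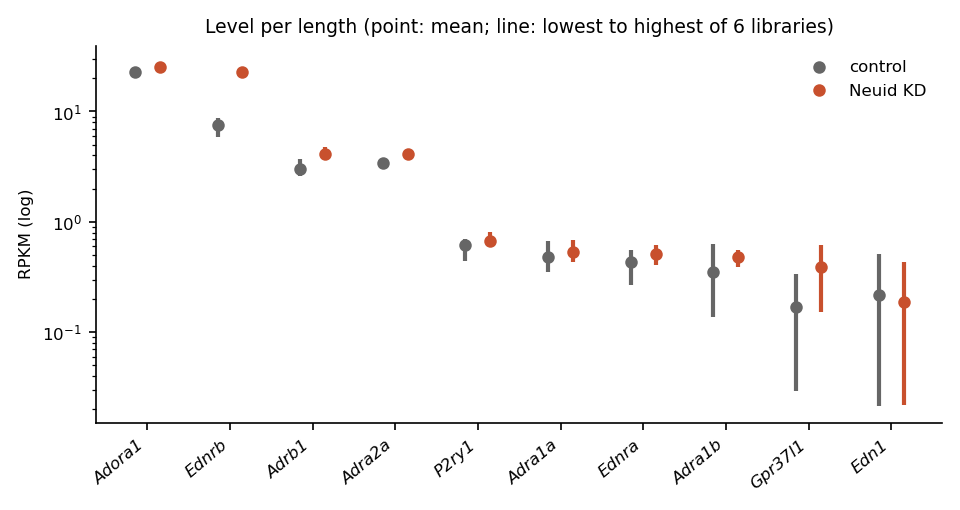
Level per length (RPKM, log y axis) of the 10 genes (x axis) in control and *Neuid* KD; points are means and lines run from the lowest to the highest of 6 libraries. In control, Ednrb at 7.60 RPKM sits apart under Adora1 at 22.7 RPKM, and in *Neuid* KD their ranges meet.

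Levels of different genes were compared as RPKM, which is CPM divided by the annotated exon length in kilobases. In control, Adora1 was highest at 22.7 ± 1.77 RPKM, followed by Ednrb at 7.60 ± 1.18 RPKM (SD, n = 6 each), and their ranges were apart. Adra2a at 3.42 ± 0.29 and Adrb1 at 2.99 ± 0.43 RPKM came next and overlapped with each other, but not with the genes on either side. The other 6 genes had means from 0.17 to 0.61 RPKM, and each overlapped with its neighbour in the order.

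In *Neuid* KD, Ednrb came to 22.9 ± 0.88 RPKM and overlapped with Adora1 at 25.1 ± 1.73 RPKM (SD, n = 6 each). Adrb1 and Adra2a had nearly the same mean of 4.13 RPKM each, and the other 6 genes had means from 0.19 to 0.68 RPKM. So the order at the top was kept in the means, but the ranges of Ednrb and Adora1 were no longer apart. In *Neuid* KD replicate 1 Ednrb was above Adora1, at 23.2 and 22.8 RPKM. Adora1 was the higher in each other *Neuid* KD library. The difference within a library was not tested.

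The cell types in these cultures bear on every receptor above, since in bulk RNA more cells of a type and more RNA per cell cannot be told apart. Markers of homeostatic astrocytes rose in 14 of 15 tested genes of 16 listed, with Gjb6 not tested. Among all tested genes 6.31% rose and 2.42% fell. Their summed level was 2024 to 2589 CPM in control libraries and 5012 to 5612 CPM in those with *Neuid* KD, with a median log2 fold change of 1.31. Aqp4, the water channel of astrocyte endfeet, rose by 2.11 on the log2 scale (edgeR quasi-likelihood adjusted p = 4.5e-11). Of 15 neuron markers, 1 rose and 2 fell, and their sum was 7139 to 8398 and 6959 to 8403 CPM. No listed marker was at 0 in every library.

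Against the summed astrocyte markers, Ednrb stood at 1.37% ± 0.15 in control and 1.82% ± 0.085 in *Neuid* KD (SD, n = 6 each), with ranges of 1.22% to 1.59% and 1.73% to 1.97%. Ednrb was thus higher in *Neuid* KD also relative to these markers, without overlap. Adra2a went the other way, from 0.71% ± 0.11 to 0.37% ± 0.035 of the same sum, and so did Adrb1, from 0.43% ± 0.061 to 0.26% ± 0.023 (SD, n = 6 each). Against the summed neuron markers the means of all 3 were higher in *Neuid* KD. The ranges of Ednrb and Adrb1 were apart, with Adrb1 at 0.13% ± 0.021 and 0.18% ± 0.013, whereas those of Adra2a overlapped, at 0.21% ± 0.028 and 0.25% ± 0.029 (SD, n = 6 each). These shares were not tested. The part of cell composition in the receptor changes was not tested.

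Markers of endothelial cells and of mural cells and fibroblasts, which also carry endothelin receptors, had lower sums than those of homeostatic astrocytes and neurons. The 9 endothelial markers summed to 6.99 to 27.8 CPM in control libraries and 7.02 to 25.1 CPM in those with *Neuid* KD, and Cldn5, Tie1 and Emcn were too low to be tested. The 13 mural and fibroblast markers summed to 50.1 to 91.0 and 46.3 to 85.2 CPM. The highest of them was Dcn, at 21.6 ± 1.24 and 20.9 ± 1.16 CPM (SD, n = 6 each). The part of such cells in the endothelin receptor reads was not tested. In both lists 0 genes passed with edgeR, with 0 at an unadjusted p under 0.05 and 0 with DESeq2. Of 8 oligodendrocyte precursor markers, 4 rose (3 with DESeq2) and 4 did not pass, with sums of 141 to 162 and 302 to 341 CPM. Much of these sums was Olig1, at 78.2 ± 8.49 and 216 ± 11.7 CPM (SD, n = 6 each). Pdgfra was among those that did not pass (log2 fold change 0.44, edgeR quasi-likelihood adjusted p = 0.22). Of 8 tested reactive astrocyte markers, 2 rose and 3 fell, with sums of 743 to 835 and 602 to 625 CPM. Much of these sums was Vim, which fell from 555 ± 29.1 to 332 ± 8.64 CPM (edgeR quasi-likelihood adjusted p = 3.1e-09). Gfap rose from 140 ± 8.22 to 210 ± 5.58 CPM (adjusted p = 1.3e-07, SD, n = 6 each for both genes). Such marker counts stand beside 6.31% of all tested genes that rose and 2.42% that fell. Of 5 tested markers of myelinating oligodendrocytes 1 fell, and of 5 tested markers of microglia 0 passed with edgeR, with 0 at an unadjusted p under 0.05 and 0 with DESeq2.

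Downstream of the receptors, 3 of 13 G alpha subunit genes rose and none fell, the latter also at an unadjusted p under 0.05 and with DESeq2. For all tested genes these shares were 6.31% and 2.42%. Gna13, which couples receptors to the cytoskeleton, went from 59.1 ± 4.72 to 80.0 ± 5.11 CPM (SD, n = 6 each), a log2 fold change of 0.44 (edgeR quasi-likelihood adjusted p = 7.9e-05). Gnai2, a Gi subunit, rose by 0.33 (adjusted p = 7.8e-04) and Gna12 by 0.22 (adjusted p = 0.017) on the log2 scale. Gnaq, the Gq subunit that carries endothelin and alpha-1 adrenergic signals, was at 242 ± 14.6 and 258 ± 19.6 CPM (SD, n = 6 each) and did not pass. Gnao1, the most abundant per length of those that did not pass, was at 934 ± 64.7 and 977 ± 82.7 CPM (SD, n = 6 each).

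Among 16 genes for phospholipase C beta, IP3 receptors and adenylyl cyclases, 3 rose and 1 fell, with a median log2 fold change of -0.06. Again, 6.31% of all tested genes rose and 2.42% fell. Itpr2, the main IP3 receptor of astrocytes, was at 12.4 to 17.5 CPM in control (median 15.2) and at 31.4 to 36.1 CPM in *Neuid* KD (median 33.7). The gap between the groups exceeded the range of either, and Itpr2 rose 2.25-fold (log2 fold change 1.17, SE 0.081, edgeR quasi-likelihood adjusted p = 1.8e-08). Plcb1 rose by 0.25 (adjusted p = 0.010) and Adcy2 by 0.18 (adjusted p = 0.039) on the log2 scale. Adcy1, a calcium-stimulated adenylyl cyclase of neurons, fell by 0.27 (adjusted p = 0.034), from 239 ± 14.2 to 198 ± 25.1 CPM (SD, n = 6 each). Adcy5 was the best expressed per length of those that did not pass, with a log2 fold change of -0.08 (adjusted p = 0.64). Of 7 receptor kinase and arrestin genes 0 passed with edgeR or DESeq2, and 1 was higher at an unadjusted p under 0.05. Grk2, the highest of them per length, was at 102 ± 7.44 and 116 ± 9.36 CPM (SD, n = 6 each).

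Of 12 other receptor genes known from glia, 3 rose and 1 fell, while 6.31% of all tested genes rose and 2.42% fell. Adgrg1, an adhesion receptor that binds extracellular matrix, went from 66.1 ± 6.66 to 142 ± 7.66 CPM (SD, n = 6 each, log2 fold change 1.11, edgeR quasi-likelihood adjusted p = 1.8e-09). Adcyap1r1, the receptor of the peptide PACAP, went from 65.1 ± 9.04 to 131 ± 6.28 CPM (SD, n = 6 each, log2 fold change 1.00, adjusted p = 8.5e-08). Gprc5b rose by 0.40 on the log2 scale (adjusted p = 8.2e-05). Bdkrb2, the bradykinin B2 receptor, fell by 1.22 (adjusted p = 0.0045), from 3.97 ± 0.63 to 1.75 ± 0.89 CPM (SD, n = 6 each). Gabbr2, a GABA-B receptor subunit and the highest per length of those that did not pass, differed by 0.10 on the log2 scale, which did not pass (adjusted p = 0.45).

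**Figure D5:**
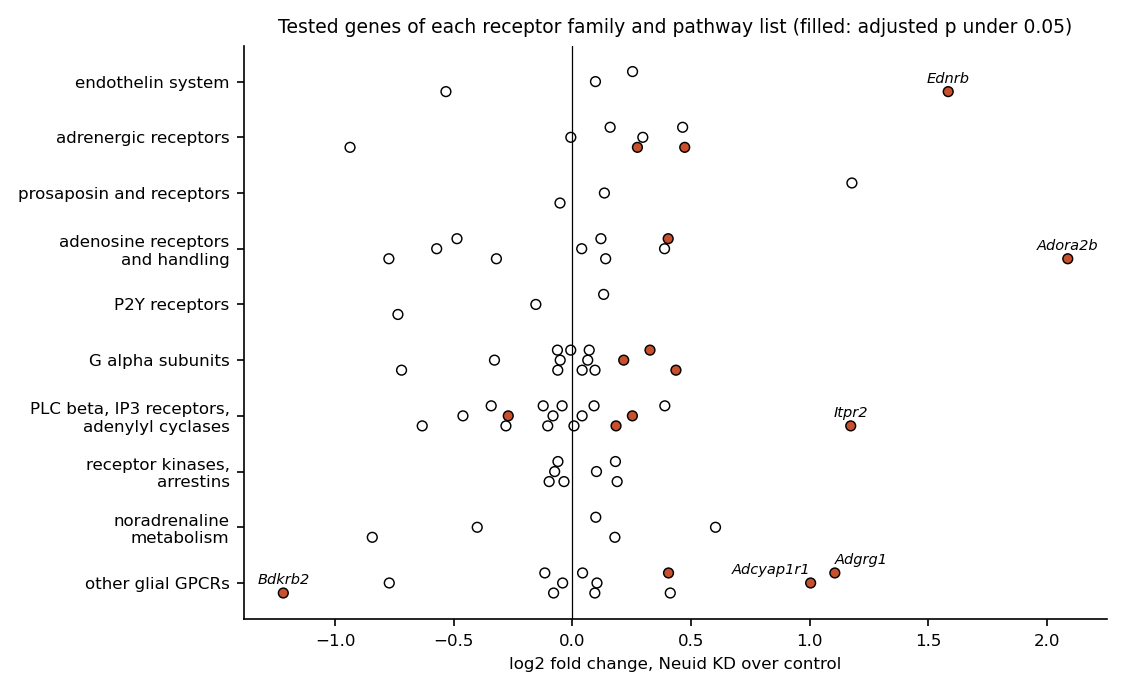
Log2 fold change of *Neuid* KD over control (x axis) for each tested gene of the receptor families and pathway lists (y axis); filled points have an adjusted p under 0.05 in edgeR. Among the filled points, Adora2b, Ednrb, Itpr2, Adgrg1 and Adcyap1r1 lie at 1.00 or above and Bdkrb2 lies below -1; the open point at 1.18 is Gpr37l1.

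The genes whose log2 CPM was most like that of Ednrb over the 12 libraries were Zcchc24 (Pearson r = 0.995), Hepacam (r = 0.995) and Serpine2 (r = 0.994). These values rest mainly on the difference between the 2 groups, which the libraries share. After each group mean was taken off, the closest genes were others, R3hcc1l (r = 0.90), Cdyl2 (r = 0.87) and Rsph3a (r = 0.87), over the same 12 libraries, as a description among 19578 genes.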

How the data were processed

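RNA was measured in 12 libraries of primary hippocampal neurons, 6 per group by the labels. The libraries were of stranded total RNA. Alignment was to mm10 (GRCm38) by STAR, and the authors deposited raw counts per gene from featureCounts. The annotation release and strand setting are not given in the sources used here. Symbols and positions of 55230 of 55471 genes came from GENCODE on GRCm38, and promoters of 9 of the 10 genes from RefSeq (GRCm38.p6).

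Counts were filtered (filterByExpr), scaled by TMM and tested with edgeR 4.0.16 (quasi-likelihood, R 4.3.3, Benjamini-Hochberg over 19578 genes, threshold 0.05). The alternatives were fitted with edgeR or DESeq2 1.42.0, and limma 3.58.1 was loaded beside edgeR. Exact permutation tests were two-sided (numpy 2.4.6), and ratios of reads used a pseudocount of 0.5. In 1 simulated comparison of *Neuid* KD with control on 18451 genes, some genes were changed by 0.5 or 1 on the log2 scale. Of those changed by 0.5, 60.0% were recovered, and of those changed by 1, 75.0%, while 4.25% of calls were false. The changed genes were drawn only from genes above a floor of expected reads. These rates therefore do not cover genes with few reads, Gpr37l1 among them.

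The members and lists were chosen with earlier results of these data known. Named are all members; from each receptor or pathway list up to 4 genes that passed, by size of change, and the highest per length that did not (for the noradrenaline list it is not reported here); and the 3 genes most like Ednrb. Edn2, Edn3, Gpr37, Th, Gnaq, Aqp4 and the untested genes were added after their values were seen. Alternatives were other scalings, filters, DESeq2, RUVs, background, GC and length terms, a replicate block and leaving out each library.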

Additional observations from a re-analysis of the deposited data

Results flagged for a closer look

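Adrb1 was at 16.1 CPM in *Neuid* KD replicate 4, while the other 5 *Neuid* KD libraries lay between 12.88 and 14.03 CPM. Dixon's test for an outlying sample marked this library, the single mark among 22 groups of values examined, and chance marks about 1 in 20.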

How the results depend on the processing

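Of the 9 tested receptor genes, 3 were called higher, and 2 to 3 with any single library omitted; the 2 were Ednrb and Adrb1, without *Neuid* KD replicate 5. There were 5 with an RUVs factor in edgeR and 5 with the background as a covariate, 1 (Ednrb) among the 7 libraries with most background, and 1 (Ednrb) with a log2 fold change above 0.5 required; the cause was not tested. None was called lower under any of the 25 alternatives. *Neuid* stayed between -1.88 and -1.75 without any one library. Of 213 values of single genes under alternatives, 202 kept direction and side of the threshold, 5 no longer passed, 6 newly passed and 0 reversed; 2 values of Gpr37l1 from DESeq2 came with no adjusted p and are not counted. Without any one library, the log2 ratio of Ednrb to Ednra differed by 1.17 to 1.49, that of Adra1a to Adra1b by -0.63 to -0.38 (p = 0.0498 by exact permutation without control replicate 4) and that of Gpr37l1 to Gpr37 by 0.97 to 1.66 (p = 0.045 without control replicate 2 and 0.037 without *Neuid* KD replicate 2, exact permutation). Among the libraries with little background the first was 1.01 (exact permutation p = 0.10, the smallest these 5 libraries allow), and among the others the last was 1.46 (exact permutation p = 0.029). The Edn1 log2 ratio of means went from -0.65 to 0.23 without any one library and was 1.90 in the 5 libraries with little background.

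Over all tested genes 1235 were higher and 473 lower. Alternatives with the same threshold gave 651 to 1776 higher, the fewest among the 7 libraries with most background and the most with background as a covariate. They gave 205 to 1259 lower, the fewest in the same 7 libraries and the most with upper-quartile scaling (1049 higher). Without a filter the counts were 711 and 229, and with a log2 fold change beyond 0.5 they were 477 and 155. After each group mean was taken off, same-numbered libraries correlated at r from -0.64 to 0.77. The value was over 0.1 in 2 of 6 numbers, and 2 of 6 matched best with their own number. These were numbers 1 (r = 0.77) and 3 (r = 0.75), whose control and *Neuid* KD libraries also had like background, 667 and 617 CPM for number 1 and 26.7 and 27.1 CPM for number 3. Libraries can deviate together through background as well as through a shared culture, so this check cannot tell whether the numbers pair the samples. With the replicate number as a block, 3 receptor genes were higher, with 1299 genes higher and 542 lower in all. Reads limit Edn1 and Gpr37l1, at most 23 and 31 in any library.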
